A study of Homo sapiens with 6 samples.

Results

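The transcripts described here are those of 6 genes known as downstream genes of STAT proteins in blood cells: the survival kinases PIM1, PIM2 and PIM3 and the B-lineage regulators BCL6, BCL3 and PRDM1. They were chosen by name, with earlier results of these data known, and were looked up by gene symbol among the 26364 genes of the authors' deposited table, and all 6 were found and tested there. RNA came from REH, a human line of acute lymphoblastic leukaemia that resembles precursor B cells, and 6 libraries were sequenced. A lentivirus delivered a short hairpin RNA against STAT3 in 3 of them (shSTAT3) and a scramble hairpin in the other 3, in 3 independent experiments. Both groups went through 3 days of puromycin and a step that took out dead cells, and RNA was extracted after that. The sources used here do not give the hairpin's sequence or say whether more than 1 was used. The deposited table gives each gene's normalized count averaged over the 6 libraries, its log2 fold change and the p-value before and after adjustment, so no value per library can be shown for any gene.

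STAT3 is a transcription factor that is phosphorylated by JAK kinases below cytokine receptors and then binds palindromic sites in DNA. PIM kinases are serine/threonine kinases that are active as soon as they are made, so that their amount is set mainly by how much transcript and protein the cell holds, and PIM1 is a textbook STAT target. BCL6 is a transcriptional repressor of germinal centre B cells that also protects pre-B cells, PRDM1 encodes BLIMP1, which drives plasma cell differentiation, and BCL6 and BLIMP1 repress each other. BCL3 is an atypical IkB protein that works in the nucleus with NF-kB p50 or p52 homodimers.

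Among the PIM kinases and the B-lineage regulators, the transcripts of PIM1 and BCL6 were lower in shSTAT3 cells and that of PIM3 was higher. PIM1 stood at 73.3% of its scramble level, BCL6 at 82.0% and PIM3 at 141%, while PIM2, BCL3 and PRDM1 did not pass the test. A gene is called here when its adjusted p, from DESeq2 over 12061 tested genes per the authors' deposited table, lies under 0.05. Of all tested genes 44.5% were called, 21.3% as higher and 23.2% as lower in shSTAT3 cells, and the share of the 6 genes, 3 of 6 with 1 higher and 2 lower, is close to that background. The count is therefore no result about these genes as a set, and their values are given gene by gene. No called gene among the 6 reached a 1.5-fold change, a size that 17.3% of tested genes reached together with an adjusted p under 0.05.

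**Figure D1:**
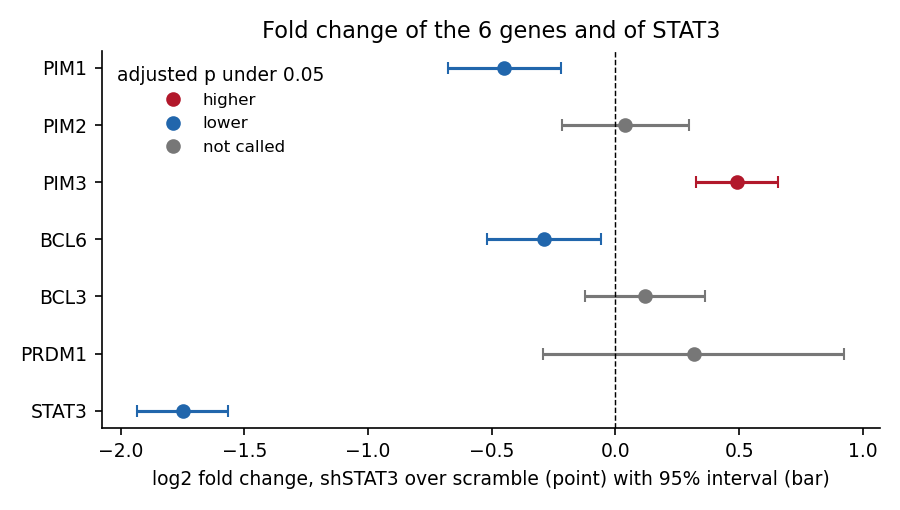
Log2 fold change (x axis, shSTAT3 over scramble) of the 6 genes and of STAT3 per the authors' deposited table, with points for the fold change and bars for the 95% interval computed from fold change and p. The bar of PIM1 lies below 0 from −0.68 to −0.22 and that of PIM3 above 0 from 0.33 to 0.66, while that of PRDM1 is the widest.

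The hairpin's target was checked first. STAT3 stood at 29.8% of scramble (95% interval 26.2% to 33.8%). Which group is the numerator is not stated in the table, and a negative fold change was read as lower in shSTAT3 because STAT3 is negative, so that this value sets the direction of all others and checks no label. Of 15 B-cell precursor markers 14 were tested, with a summed mean of 97864 normalized counts, and VPREB1 was listed at 0. Of the 14, 2 were higher and 6 lower in shSTAT3. The summed means of T-cell and erythroid markers were 16.5 and 2.10, with CD3D, CD3G and HBA1 at 0. The 1 tested T-cell marker, TRAT1, had a mean of 14.4 normalized counts and was higher, with a log2 fold change of 1.61 per the authors' deposited table (DESeq2 adjusted p = 9.42e-06). Myeloid markers summed to 3011, of which 2330 came from MPO, with 1 of 4 tested markers higher and 2 lower in shSTAT3. Plasma cell markers summed to 1375, of which 1265 came from MZB1, with JCHAIN and TNFRSF17 at 0, and 1 of 2 tested was lower. Fibroblast and epithelial markers summed to 858, of which 806 came from PDGFRB, with 4 of 8 at 0, and both tested ones were lower. Their part in the results below was not tested. In RNA from a whole culture, fewer cells that express a gene and less RNA of it per cell cannot be told apart.

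The 3 PIM kinases phosphorylate many of the same proteins, and they are encoded by short genes on different chromosomes. On GRCh38, in GENCODE release 29, PIM1 occupies chromosome 6 from 37170203 to 37175426 (plus strand). PIM2 occupies chromosome X from 48913182 to 48919024 (minus strand) and PIM3 chromosome 22 from 49960513 to 49964080 (plus strand). For each gene the protein-coding transcript with the longest coding sequence was compared. These transcripts share no exact stretch longer than 23 bases, found between PIM1 and PIM3. The longest shared stretch was 13 bases between PIM1 and PIM2 and 17 bases between PIM2 and PIM3. Of the 30-base words of PIM1, 6 of 2621 also occur in transcripts of other genes, and 0 do for PIM2 or PIM3.

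PIM1, the founding member of the kinase family, had a mean of 535 normalized counts over the 6 libraries per the authors' deposited table. From that mean and the fold change, group means of 453 in shSTAT3 and 618 in scramble are implied, taking both groups to weigh equally. The deposited fold changes are pulled toward 0 by shrinkage, so the implied group means of PIM1 and of the genes below stand closer together than unshrunken values would put them, by an amount that cannot be computed from the table. Its log2 fold change was −0.45 per the authors' deposited table (95% interval −0.68 to −0.22, DESeq2 adjusted p = 0.00051). By that interval its level in shSTAT3 lay between 62.5% and 85.8% of scramble, and 71.2% of tested genes changed by less. PIM1 ranked 2777 by p among the tested genes.

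PIM2, the PIM kinase known for high expression in lymphoid and plasma cells, had a mean of 433 normalized counts per the authors' deposited table, with implied group means of 439 in shSTAT3 and 427 in scramble. Its log2 fold change was 0.04 per the authors' deposited table (95% interval −0.22 to 0.30, DESeq2 adjusted p = 0.829). The interval runs from 86.1% to 123% of scramble, so a fall as large as the point estimate of PIM1 lies outside it, while any level between those bounds does not.

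PIM3, the third kinase of the family, had a mean of 1586 normalized counts per the authors' deposited table. Implied group means were 1854 in shSTAT3 and 1318 in scramble. Its log2 fold change was 0.49 per the authors' deposited table (95% interval 0.33 to 0.66, DESeq2 adjusted p = 5.37e-08), and it ranked 1196 by p among tested genes. The rise was 1.41-fold, against 1.03-fold for PIM2, and the intervals of PIM3 and PIM2 do not overlap, nor do those of PIM3 and PIM1. The ends of the PIM1 and PIM2 intervals all but meet, at −0.22 in both. These differences between genes were read from the intervals and were not tested.

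Levels can be set side by side only per length, here the mean normalized count per kb of exon sequence in GENCODE. On that scale PIM3 was the most abundant of the 6, at 645, above 94.6% of the tested genes with a known length. BCL6 followed at 221, PIM1 at 180, PIM2 at 157, BCL3 at 108 and PRDM1 at 4.27, and PRDM1 lay above only 4.27% of those genes. Per kb of the longest annotated transcript the order of PIM1 and PIM2 turned round, at 202 and 209, and BCL3 moved to 172. Without values per library the spread behind these levels is unknown, so neighbours in this order, PIM1 and PIM2 above all, cannot be said to differ. The implied levels per kb were 152 in shSTAT3 and 208 in scramble for PIM1, 159 in shSTAT3 and 155 in scramble for PIM2, and 753 in shSTAT3 and 536 in scramble for PIM3. The summed level of the 3 PIM genes per kb was 1064 in shSTAT3 and 898 in scramble, a ratio of 1.19. PIM3 made up 70.8% of that sum in shSTAT3 and 59.7% in scramble, and PIM1 14.3% in shSTAT3 and 23.1% in scramble. These levels, sums and shares rest on the shrunken fold changes too and are descriptions with no test, in which shares of the 2 groups may lie too close together.

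**Figure D2:**
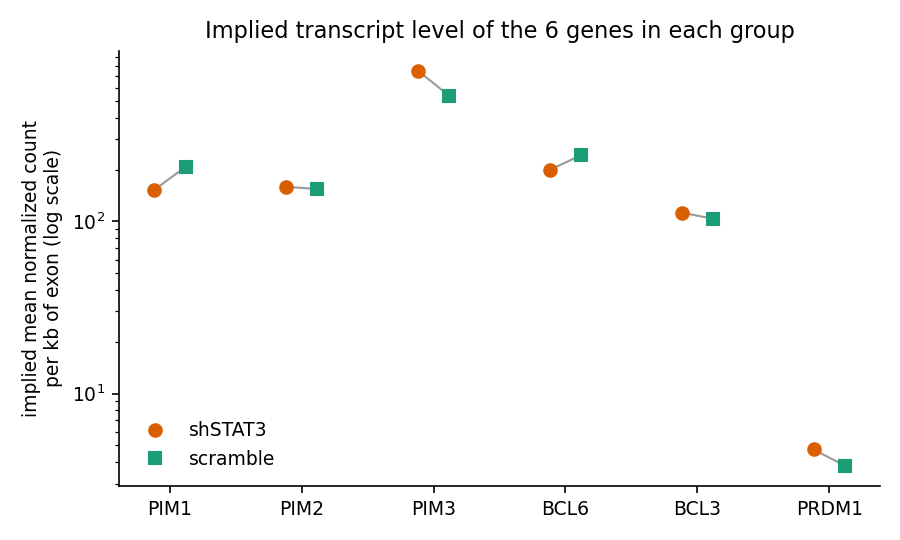
Implied mean normalized count per kb of exon (log y axis) of the 6 genes, with circles for shSTAT3 and squares for scramble, computed from the deposited mean and fold change. PIM3 sits highest, at 753 in shSTAT3 and 536 in scramble, and PRDM1 lowest, at 4.73 in shSTAT3 and 3.80 in scramble.

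The 3′ untranslated regions of PIM1 and PIM3 hold copies of TATTTAT (searched on the transcript strand only), the heptamer of AU-rich elements, which are known to mark unstable transcripts. The sites are shown because PIM1 and PIM3 are the kinases of this family that changed, in opposite directions, and both carry the element, with the heptamers in capitals.
PIM1, chr6:37174988-37175014, plus strand: tatgTATTTATTTATTTATTTATttgg
PIM3, chr22:49963574-49963588, plus strand: ctgtTATTTATggtg
PIM3, chr22:49963619-49963633, plus strand: gggcTATTTATtgtt
In PIM1 4 overlapping heptamers form an unbroken run, and 4 or more heptamers anywhere in the region were found in 2.75% of the 10050 tested genes with a 3′ untranslated region of at least 100 bases, while 33.1% had at least 1. The count of 4 was taken from PIM1 itself, so that share is a description. PIM2, BCL6, BCL3 and PRDM1 had 0. For every gene only the protein-coding transcript with the longest coding sequence was searched, so these counts do not cover its other transcripts. Counted by the core ATTTA, which lies inside the heptamer, PIM1 held 3.75 per kb, PIM3 4.20, PIM2 2.11, PRDM1 5.03, BCL6 0.925 and BCL3 0, against a median of 1.66 over tested genes. A match is a run of letters and does not show that the element acts in these cells.

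The BCL6 gene runs on the minus strand of chromosome 3 from 187721377 to 187745727 in GRCh38. It had a mean of 1314 normalized counts per the authors' deposited table, with implied group means of 1184 in shSTAT3 and 1445 in scramble. Its log2 fold change was −0.29 per the authors' deposited table (95% interval −0.52 to −0.06, DESeq2 adjusted p = 0.0346). This was the weakest of the 3 calls, and it was lost when p-values were adjusted over every gene that has one (adjusted p = 0.0502). Exons of the antisense transcripts AC072022.1 and AC072022.2, which are not analysed here, overlap those of BCL6, and counting by strand is not stated, so that their reads cannot be told apart from reads of BCL6.

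STAT dimers bind the palindrome TTCNNNGAA, and BCL6 binds a similar sequence. The motif reads the same on both strands, and it was looked for in RefSeq windows of 250 bases before to 50 after each start (GRCh38.p14), where all 6 genes matched with 8 starts. In the 250 bases before the start, 1 of the 8 held it, the upstream start of BCL6, against 6.57% of all 35116 promoters. The stricter form TTCCNGGAA, a subset of the first, was found at 0 of the 8 starts and in 0.968% of all promoters. By GENCODE, all 250 bases before both BCL6 starts and before the PIM3 start lie in exons of the gene itself. For BCL3 161 of the 250 do, for the PRDM1 starts 16 and 47, and for PIM1 and PIM2 0. In the whole window the upstream start of BCL6 had 4 matches, beginning at −28, −5, 10 and 36 with the start at 0. Of all 35116 windows 0.0199%, or 7, held 4 or more. The whole window was added after seeing the data and the count of 4 was taken from BCL6 itself, so that share describes the find and tests nothing. These 4 are shown with 3 flanking bases on each side and the fixed bases of the palindrome in capitals, because BCL6 is the member in which such letters cluster.
BCL6, chr3:187745485-187745499, minus strand: aaaTTCcgaGAAttg
BCL6, chr3:187745462-187745476, minus strand: tgaTTCttaGAActg
BCL6, chr3:187745447-187745461, minus strand: gggTTCttaGAAgtg
BCL6, chr3:187745421-187745435, minus strand: agtTTCtagGAAagg
Another of these 7 windows belongs to CISH, a feedback inhibitor known as a target of STAT5, whose mean was 18.1 normalized counts and whose log2 fold change was −0.27 per the authors' deposited table (95% interval −0.90 to 0.35, DESeq2 adjusted p = 0.513). ZNF225, whose window also holds 4, had a log2 fold change of −0.05 per the authors' deposited table (DESeq2 adjusted p = 0.856).

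**Figure D3:**
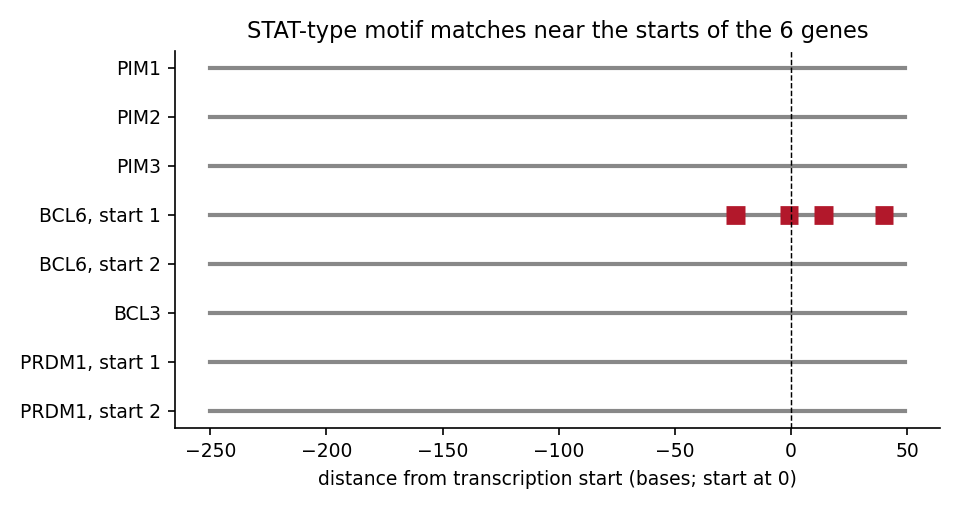
Matches to TTCNNNGAA (red bars) in the windows around the 8 RefSeq starts of the 6 genes (grey lines), by distance from the transcription start in bases (x axis, start at 0). The 4 matches lie at 1 of the 2 BCL6 starts, and the other 7 windows hold 0.

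By point estimate PIM1 fell further than BCL6, though their intervals overlap and the difference was not tested. PIM1 has no match in this window. Its 250 bases before the start are shown for contrast with the BCL6 sites and are 79.6% G and C, against 54.4% for the BCL6 start with the matches.
PIM1, chr6:37169902-37170151, plus strand: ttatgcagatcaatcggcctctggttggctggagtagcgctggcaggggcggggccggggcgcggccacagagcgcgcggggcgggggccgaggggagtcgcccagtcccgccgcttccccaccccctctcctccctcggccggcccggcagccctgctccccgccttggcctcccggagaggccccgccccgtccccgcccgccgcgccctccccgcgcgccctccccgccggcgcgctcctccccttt
The starts of PIM3, BCL3 and PIM2 were 82.0%, 80.8% and 61.2% G and C in the 250 bases before them, and both PRDM1 starts were between 48.8% and 53.6%. The absence of the motif says only that these letters are not in this window.

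BCL3 lies on chromosome 19 from 44747705 to 44760044 and had a mean of 350 normalized counts per the authors' deposited table. Its implied group means were 365 in shSTAT3 and 336 in scramble. Its log2 fold change was 0.12 per the authors' deposited table (95% interval −0.12 to 0.36, DESeq2 adjusted p = 0.448), which covers 91.9% to 129% of scramble. The microRNA gene MIR8085 overlaps a BCL3 exon and had a mean of 0.166 normalized counts per the authors' deposited table.

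PRDM1 lies on chromosome 6 from 106086320 to 106109939 and was the least abundant of the 6, with a mean of 27.3 normalized counts per the authors' deposited table. Implied group means were 30.3 in shSTAT3 and 24.3 in scramble. Its log2 fold change was 0.32 per the authors' deposited table (95% interval −0.29 to 0.93, DESeq2 adjusted p = 0.425). The standard error of that fold change, 0.31, was larger than the median of 0.12 over all tested genes, and the interval ran from 81.7% to 190% of scramble. At this depth a change of PRDM1 of the size seen for PIM1, BCL6 or PIM3 was not detectable.

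**Figure D4:**
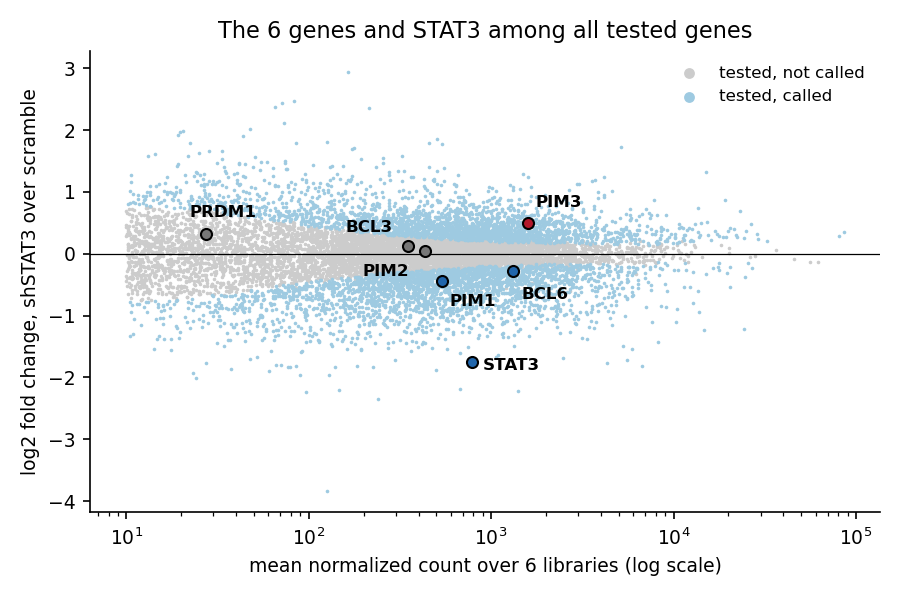
Log2 fold change (y axis, shSTAT3 over scramble) against mean normalized count over 6 libraries (log x axis) for the 12061 tested genes, with the 6 genes and STAT3 as large points. PIM3 lies above 0 and PIM1 and BCL6 lie below 0, with BCL6 close to genes that were not called. PRDM1 lies at a mean of 27.3 where the band of genes that were not called is wide.

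Genes around the 6 were taken in 7 lists by role, 183 genes in all of which 156 were tested and 16 belong to more than 1 list. The share of each list that was called is set beside that of all tested genes, 44.5% (21.3% higher and 23.2% lower), as a description with no test. All tested genes include those with means down to 10.0 normalized counts, and they were not matched to the lists by mean. Genes of PIM substrates and partners were called in 14 of 28 tested cases, or 50%, 4 higher and 10 lower, which is close to the share of all tested genes, with a median log2 fold change of −0.08 against 0.0027 over all tested genes. HSP90AA1 and HSP90AB1, the chaperones that hold PIM proteins stable, fell, with log2 fold changes of −1.23 and −0.53 per the authors' deposited table (DESeq2 adjusted p = 6.99e-34 and 1.53e-11). The transcription factor MYB and the chemokine receptor CXCR4, both described as PIM substrates, fell by 0.61 and 0.58 on the log2 scale per the authors' deposited table. MYC, whose protein PIM kinases stabilise, fell by 0.28 per the authors' deposited table. Among substrates of the cell cycle and of growth, the phosphatase genes CDC25C and CDC25A fell by 0.80 and 0.53 on the log2 scale and EIF4EBP1, a repressor of translation, by 0.52 per the authors' deposited table (DESeq2 adjusted p = 4.55e-05, 0.000337 and 0.000379). The mTORC1 component gene AKT1S1 rose by 0.52 and the spindle gene NUMA1 by 0.24 per the authors' deposited table (DESeq2 adjusted p = 6.13e-05 and 0.00364). Other substrate genes of survival and the cell cycle did not pass. The log2 fold change was −0.10 for the BH3-only gene BAD, −0.10 for FOXO3, −0.11 for FOXO1, 0.12 for the inhibitor CDKN1A and −0.07 for its relative CDKN1B per the authors' deposited table, with DESeq2 adjusted p between 0.38 and 0.682. The kinase gene GSK3B was at 0.12 per the authors' deposited table (DESeq2 adjusted p = 0.264).

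BCL6 represses through corepressor complexes, and their genes were called in 13 of 25 tested cases, or 52%, 2 higher and 11 lower, against 44.5% of all tested genes, with a median log2 fold change of −0.15. The deacetylase HDAC2, the scaffold SIN3A and the methyltransferase EZH2 fell by 0.62, 0.47 and 0.51 on the log2 scale per the authors' deposited table. NCOR1, which binds the BCL6 BTB domain, fell by 0.39, while its partner deacetylase HDAC3 rose by 0.47 per the authors' deposited table (DESeq2 adjusted p = 1.17e-06 and 3.53e-07). BCOR, which also binds that domain, was at −0.02 per the authors' deposited table (DESeq2 adjusted p = 0.86).

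Genes described as repressed by BCL6 were called in 9 of 26 tested cases, or 34.6%, against 44.5% of all tested genes, a difference of a few genes that was not tested. Of these 3 were higher and 6 lower, with a median log2 fold change of −0.06, and PRDM1 itself belongs to the list. The anti-apoptotic gene BCL2 fell by 0.89, the checkpoint kinase gene CHEK1 by 0.84, the NF-kB inhibitor gene TNFAIP3 by 0.51 and CXCR4 as above, on the log2 scale per the authors' deposited table. CASP8, a caspase of death receptor signalling, was next by p and rose by 0.65 per the authors' deposited table (DESeq2 adjusted p = 1.43e-08, against 1.4e-08 for CXCR4). IRF4, a factor of plasma cells and of pre-B cells, had a log2 fold change of −1.08 at a mean of 31.9 normalized counts per the authors' deposited table (95% interval −1.65 to −0.50, DESeq2 adjusted p = 0.000966).

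BCL3 partners and other NF-kB genes were called in 9 of 23 tested cases, or 39.1%, 5 higher and 4 lower, against 44.5% of all tested genes, with a median log2 fold change of 0.12. NFKB1 and NFKB2, the genes of the BCL3-bound subunits p50 and p52, were higher, by 0.29 and 0.28 on the log2 scale per the authors' deposited table (DESeq2 adjusted p = 0.000668 and 0.012). The kinase subunit gene IKBKB rose by 0.40, while CHUK, its partner subunit, fell by 0.69 per the authors' deposited table. SHMT1, a folate enzyme, fell by 0.53 per the authors' deposited table. RELB was at 0.18 per the authors' deposited table (DESeq2 adjusted p = 0.404).

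Genes described as repressed by BLIMP1 were called in 16 of 26 tested cases, or 61.5%, 5 higher and 11 lower, against 44.5% of all tested genes, with a median log2 fold change of −0.17, and BCL6 belongs to the list. Of the genes that fell, E2F1, PCNA and DNMT1 are genes of DNA replication and its maintenance rather than of B-cell identity, with log2 fold changes of −1.04, −0.68 and −0.67 per the authors' deposited table. PAX5, which holds B-cell identity, and CD79A, a B-cell receptor chain, were higher, at log2 fold changes of 0.32 and 0.63, while SPIB, an ETS factor of B cells, fell by 1.04 per the authors' deposited table. BACH2, which represses PRDM1, was at −0.25 per the authors' deposited table (DESeq2 adjusted p = 0.055).

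Plasma cell genes were called in 14 of 21 tested cases, or 66.7%, 4 higher and 10 lower, against 44.5% of all tested genes, with a median log2 fold change of −0.23. XBP1, the factor of secretory expansion that acts below BLIMP1, fell by 0.84, and the chaperone gene HSP90B1 and the coactivator gene SUB1 fell by 0.46 and 0.47 per the authors' deposited table. SEC11C, a signal peptidase subunit, rose by 0.76 on the log2 scale per the authors' deposited table.

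Other genes described as activated by STAT3 or STAT5 were called in 16 of 24 tested cases, or 66.7%, 3 higher and 13 lower, against 44.5% of all tested genes, with a median log2 fold change of −0.32. Falls larger by point estimate than those of PIM1 or BCL6 were seen for the survivin gene BIRC5 (log2 fold change −1.35) and the growth factor VEGFA (−1.06), per the authors' deposited table. CCND3, which encodes a D-type cyclin, also fell further by point estimate (−0.66 per the authors' deposited table). These differences between genes were not tested. SOCS2, a STAT5-induced inhibitor of cytokine receptors, had a log2 fold change of −0.46 per the authors' deposited table (DESeq2 adjusted p = 0.0202), close to that of PIM1. The 3 genes called higher were LIF, ICAM1 and BCL2L1. Their log2 fold changes were 1.11, 0.54 and 0.20 per the authors' deposited table (DESeq2 adjusted p = 7.47e-08, 0.000662 and 0.0351).

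**Figure D5:**
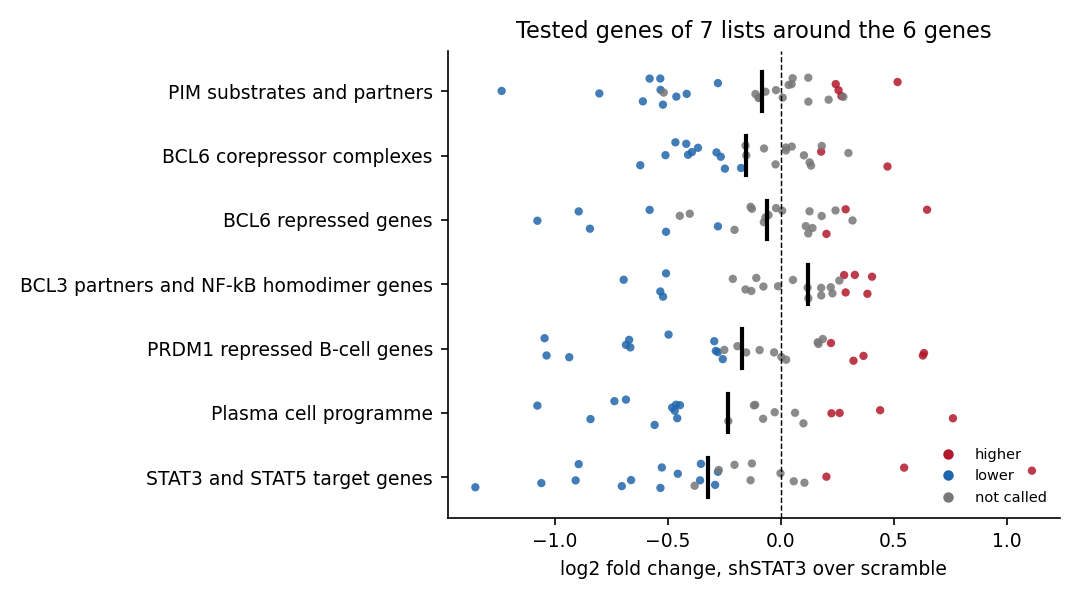
Log2 fold change (x axis, shSTAT3 over scramble) of every tested gene in the 7 lists (rows), with red for genes called higher, blue for genes called lower and grey for genes not called. Black bars mark list medians, from −0.32 for STAT3 and STAT5 target genes to 0.12 for BCL3 partners, and the dashed line the median of all tested genes.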

How the data were processed

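Libraries were TruSeq RNA v2, per the labels' protocols. Per the submitters' processing notes, the tools were DESeq2, featureCounts, Picard, Bowtie2, Trimmomatic and bcl2fastq 2.19 and the build hg38, with no order or settings. The mean is a normalized count signal averaged by the authors over 6 libraries, and the log2 fold change, p-value and adjusted p were computed by the authors with DESeq2, per the file headers. Fold changes are shrunken, since the 1353 genes with a mean under 0.2 have values within 0.0593 of 0, and the intervals are those of shrunken values. The mean total was 11485068 normalized counts per library, and counts per library are not given, so no model was refitted and the depth of each library is not shown.

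The standard error was the size of a fold change over the normal z-value that its p corresponds to, and 95% intervals and implied group means follow from them and the deposited mean. BH adjustment, intervals and the motif search were tested on simulated data. The simulated fold changes were not shrunken, so that check does not cover intervals of shrunken values. Missing adjusted p-values were kept missing (5640 genes with a p, all with low means). Exon lengths and 3′ untranslated regions came from GENCODE 29 on GRCh38, where 11387 of 12061 tested names matched 1 gene, and promoter sequences from RefSeq (GRCh38.p14). Genes named are the 6 genes, STAT3, up to 4 called genes of each list with the smallest adjusted p and 25 genes fixed by name, some of which are not reported here. CISH is among these, and ZNF225, TRAT1, CASP8, CDC25C, CDC25A, EIF4EBP1, AKT1S1, NUMA1, LIF, ICAM1 and BCL2L1 were added after their values were seen. The 6 genes and the lists were chosen with earlier results of these data known. A planned comparison of the PIM proteins was not run. Alternatives were other thresholds, other sets for the adjustment, centring on the median, a 1.5-fold minimum and a fit on mean, length and GC content. Computation used scipy 1.17.1, pandas 2.3.3, numpy 2.4.6 and Python 3.11.15, and plots matplotlib 3.10.9.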

Additional observations from a re-analysis of the deposited data

How the results depend on the processing

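No paired analysis was possible because the table holds no value per library, and for the same reason no library could be left out and no edgeR fit was run. The other thresholds, the adjustment sets and the 1.5-fold minimum leave the fold changes as they are, so they could not turn a direction. Centring took off 0.0027, less than the size of any of the 6 fold changes. Under the fit on mean, length and GC content, which could have turned a direction, all 6 held. A mean of at least 50 leaves PRDM1 without an adjusted p. The call of PIM1 and that of PIM3 held under the other thresholds and adjustment sets, centring and the fit on mean, length and GC content (chosen after seeing the data), and the call of BCL6 was lost at a threshold of 0.01 and when p-values were adjusted over every gene with one (adjusted p = 0.0502). With a minimum of 1.5-fold the called genes came to 0 of the 6, and to 3 among PIM substrates, 1 among BCL6 corepressors, 4 among BCL6 repressed genes, 1 among BCL3 partners, 8 among BLIMP1 repressed genes, 5 among plasma cell genes and 7 among STAT targets. BCL3 moved to 172 per kb of the longest transcript. The stricter motif was found at 0 starts.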

Other observations

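Of the 12 nearest tested protein-coding genes on either side of the 6 genes, 5 were called, or 41.7%, close to the 44.5% of all tested genes. The 7 that were not called were TMEM217, OTUD5, MLC1, RTP4, ZNF180, TOMM40 and RTN4IP1. CRELD2, 33.0 kb before PIM3 on the same strand and chosen after its value was seen, as were the other genes here, rose by 0.49 on the log2 scale per the authors' deposited table (DESeq2 adjusted p = 0.000149), the same size as PIM3. FGD2, 141 kb before PIM1, rose by 0.48 per the authors' deposited table (DESeq2 adjusted p = 0.0294), against the fall of PIM1, and LPP, 408 kb from BCL6, rose by 0.33 per the authors' deposited table (DESeq2 adjusted p = 0.012). SLC35A2, 1.22 kb from PIM2, rose by 0.37 on the log2 scale per the authors' deposited table (DESeq2 adjusted p = 0.028). ATG5, an autophagy gene on the opposite strand whose body overlaps that of PRDM1, fell by 0.30 per the authors' deposited table (DESeq2 adjusted p = 0.0214), and their exons do not overlap.

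Of 14 other genes of the PRDM family that the authors list 7 were tested, 3 were listed at 0 and 1 was called. That is 14.3% of the tested ones against 44.5% of all tested genes, a difference of a few genes that was not tested. These genes and BCL6B were chosen after their values were seen. PRDM2, a histone methyltransferase gene, rose by 0.27 on the log2 scale at a mean of 1346 normalized counts per the authors' deposited table (DESeq2 adjusted p = 0.00692). BCL6B, the paralogue of BCL6, had a mean of 0.337 normalized counts per the authors' deposited table and was not tested.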
